A study of Mus musculus with 2 samples.

Results

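Neutrophils of the amputated mouse digit were examined in single-cell RNA sequencing data of tissue that had received an FGF8 bead or a BSA control bead. Cell barcodes were counted as neutrophils when they had a unique molecular identifier (UMI, the tag by which each captured transcript is counted once) for 2 or more of *Csf3r*, *Cxcr2*, *Trem1*, *Trem3*, *Stfa2l1* and *Csta3*, and a UMI of *S100a8* or *S100a9*. They also had to lack *Pdgfra* and to show at most 1 of the complement genes *C1qa*, *C1qb* and *C1qc*. The members were thus chosen on measured UMIs of these genes, and the levels of these genes are given only as a description. Of 9967 barcodes that had over 200 but under 7500 genes and less than 15% mitochondrial UMIs, 674 were neutrophils: 514 of 6715 in the FGF8 library and 160 of 3252 in the BSA library.

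Neutrophils are short-lived granulocytes that leave the bone marrow and are among the first cells to enter a wound. They are drawn by chemokines acting on CXCR2, depend on G-CSF signaling through CSF3R, and carry antimicrobial proteins in granules that are filled in order while the cell matures in the marrow. S100A8 and S100A9 together form calprotectin, the main cytosolic protein of these cells. Type I and type II interferons can switch on a shared set of antiviral genes in them, as in other cells.

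Hindlimb digits 2 and 4 of ICR mice were amputated through the middle phalanx (P2) at postnatal day 3, and an agarose microcarrier bead was implanted at postnatal day 7. The bead carried FGF8 (500 ng/µl) in one group and 0.1% BSA in PBS in the control group, and tissue was taken 24 h later, at postnatal day 8. All animals of both groups therefore carried an amputation wound and a bead. Tissue distal to the P2 stump, freed of epithelium, was pooled from 20 digits of 5 mice of both sexes per treatment and captured as 1 library. Each treatment is a single library, so no test across samples was possible, no p-value was computed, and treatment, animals, dissection and library cannot be told apart. Intervals of sums, shares and ratios are exact 95% intervals that cover counting error only. The interval of the median of a gene list is taken from the ranked ratios of its genes and reflects the spread between genes.

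The neutrophils held 2015626 UMIs with FGF8 and 727171 with BSA. They were shallow, with a median per barcode of 2446 UMIs (1188.5 genes) with FGF8 and of 3288 UMIs (1337 genes) with BSA, against 13387 and 16070.5 UMIs in the other kept barcodes. Their mitochondrial share was also low, with medians of 0.46% and 0.22% against 2.45% and 2.42%. The libraries shared 6 barcode sequences, and 1 of them was a neutrophil in either library. A barcode that held *Xist* but no Y-linked transcript was called female, and the reverse was called male. This gave 36 female-called and 200 male-called FGF8 neutrophils and 32 and 19 BSA neutrophils, with 278 and 109 left uncalled. Female cells were 15.3% of the called neutrophils with FGF8 and 62.7% with BSA, so the pools differed in sex as well as in treatment (25.1% and 79.7% among the other kept barcodes).

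Most neutrophils carried well over the required number of marker genes. In the FGF8 library 42 barcodes had 2 of the 6 genes, 71 had 3, 98 had 4, 158 had 5 and 145 had 6. The corresponding numbers in the BSA library were 13, 23, 36, 50 and 38. At the edge of the definition, barcodes with 2 of the 6 genes had 4542 *S100a8* and *S100a9* UMIs per 1000000 UMIs (CPM) with FGF8 and 1917 with BSA. The 57 and 17 barcodes just outside, with 1 of the 6 genes, had 937 and 2467 CPM. Barcodes with all 6 genes had 35940 and 41290 CPM, and the other kept barcodes 80.4 and 45.0 CPM. A further 77 FGF8 and 10 BSA barcodes met every condition but also had *Pdgfra*, a fibroblast gene, and 5 and 4 had 2 or more C1q genes.

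A small set of deep barcodes stood apart from the other neutrophils. In the FGF8 library 35 neutrophils (6.81%) and in the BSA library 15 (9.38%) had over 10000 UMIs, and they held 37.7% and 35.2% of all neutrophil UMIs. The *S100a8* and *S100a9* share of their UMIs had a median of 0.172% (FGF8) and 0.179% (BSA), compared with 2.77% and 2.61% in the shallower neutrophils. They had fewer calprotectin UMIs in absolute number too, with medians of 37 and 24 per barcode against 69 and 86. The 6 monocyte markers summed to 3035 and 3310 CPM in the deep barcodes and to 649 and 548 CPM in the shallower ones. The 4 erythroid markers, hemoglobin among them, reached 38723 and 100705 CPM in the deep barcodes against 987 and 754 CPM in the shallower ones and 38047 and 21025 CPM in the other kept barcodes. These sums rested on few barcodes, with 11116 of 29460 FGF8 UMIs and 15833 of 25797 BSA UMIs in 1 barcode each, and the median per deep barcode was 4 and 3 UMIs. In addition, 1 deep BSA barcode carried 1028 of the 1031 mast cell marker UMIs of its set. Of the neutrophil markers that the definition did not use, *Clec4d*, a lectin gene, was found in 88.6% and 93.3% of the deep barcodes. *Il1r2* was found in 60.0% and 46.7% of them and *Hdc* in 60.0% and 33.3%, and *Ly6g*, *Camp*, *Ngp* and *Cd177* in none. The 20 neutrophil markers, definition genes included, summed to 5200 and 5547 CPM in them and to 50988 and 48199 CPM in the shallower barcodes. Whether the deep barcodes are doublets was not tested. The 479 FGF8 and 145 BSA neutrophils with at most 10000 UMIs are called shallow neutrophils here. List medians are given for all neutrophils and for the shallow ones, and the shallow ratio of a named gene is given where at least 50 shallow UMIs remained and it crossed 2-fold or moved by over 1.5 times.

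**Figure D1:**
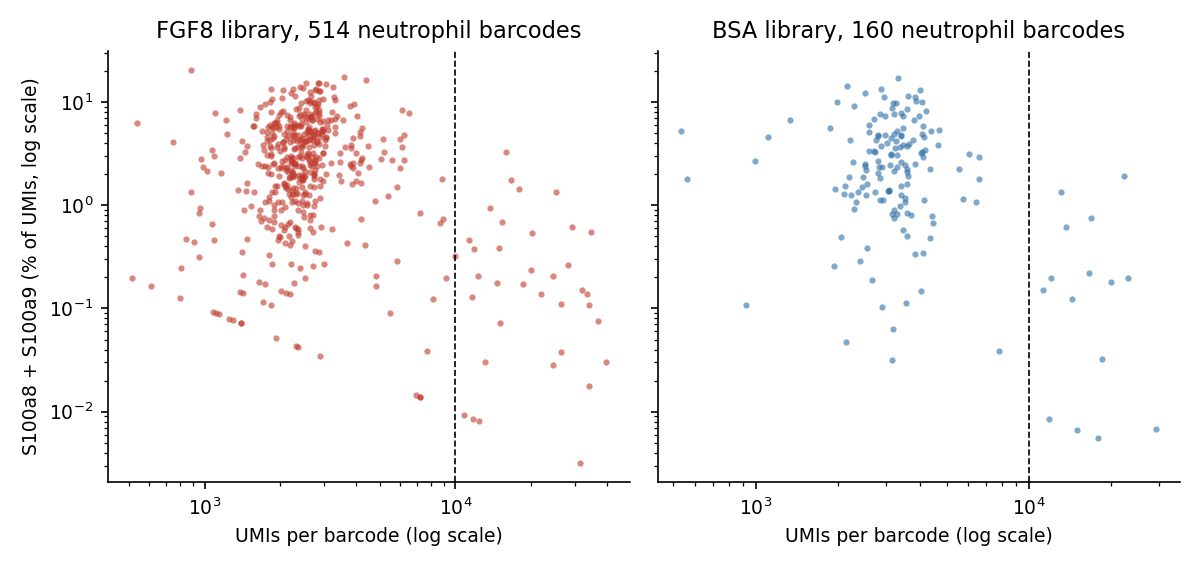
UMIs per neutrophil barcode (x axis, log scale) against the percent of those UMIs that came from *S100a8* and *S100a9* (y axis, log scale) in the FGF8 library (left, red) and the BSA library (right, blue). Each point is 1 barcode and the dashed line marks 10000 UMIs. To its right lie 35 FGF8 and 15 BSA barcodes, with medians of 0.172% and 0.179%, below the medians of 2.77% and 2.61% to its left.

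Neutrophil markers that the definition did not use ranged from found in most barcodes to nearly absent. *Clec4d*, a C-type lectin of myeloid cells, was found in 93.6% of FGF8 and 93.1% of BSA neutrophils. *Il1r2*, the decoy receptor for IL-1, was found in 81.5% and 85.6%, and *Hdc*, which makes histamine, in 70.2% and 61.9%. *Mmp9* (gelatinase B), a product of the last granules to form, was found in 45.7% and 46.9%. *Wfdc21* was found in 42.0% and 45.6%, *Slpi* in 34.8% and 38.8%, *Mmp8* in 7.20% and 12.5% and *Cd177* in 0.78% and 2.5%. The other granule genes ranged from common to absent. *Hp* (haptoglobin) was found in 72.4% and 75.6%, *Pglyrp1* in 73.7% and 85.0% and *Lyz2* (lysozyme) in 51.8% and 69.4%, while *Lcn2* (lipocalin 2) was found in 14.4% of both. *Ltf* (lactoferrin) was found in 2.33% and 8.12%, *Camp* and *Ngp* each in 2 FGF8 neutrophils and in no BSA neutrophil, and *Mpo* and *Elane* in none of either library. *Ly6g*, the usual surface marker of mouse neutrophils, had 6 FGF8 UMIs and 1 BSA UMI, while it had none in macrophages, in monocytes or dendritic cells, or in barcodes with *Pdgfra*. The pan-leukocyte gene *Ptprc* was found in 84.0% and 91.3% of neutrophils.

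RNA of other cells was also present. At least 2 of the 6 fibroblast markers were found in 96.5% of FGF8 and 82.5% of BSA neutrophils. They summed to 3884 CPM in the shallow FGF8 neutrophils and 1567 CPM in the shallow BSA neutrophils, *Pdgfra* being at 0 by definition. Macrophage markers summed to 787 and 1049 CPM, with *C1qc* and *Cd163* at 0 in the BSA library. Eosinophil markers were nearly absent, with *Epx*, *Prg2* and *Ear6* at 0 in both libraries, and B cell markers had 1 UMI in the shallow FGF8 neutrophils and 0 in the BSA ones. The part of this RNA in the differences between the libraries was not tested.

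The genes that set neutrophils apart from all other kept barcodes were ranked among the 536 found in at least 50% of neutrophils. Of the 15 with the largest ratio, leaving out the 8 genes on which the barcodes were chosen, 14 are reported here: *Cstdc4*, *Stfa2*, *Hcar2*, *Il1b*, *Nlrp3*, *Ccrl2*, *Pglyrp1*, *Clec7a*, *Samsn1*, *Hp*, *Il1r2*, *Mcemp1*, *Ccl3* and *Asprv1*. Their log2 ratios over the other kept barcodes ran from 6.18 to 8.48. They include the cytokine *Il1b* and the inflammasome sensor *Nlrp3*, the beta-glucan receptor *Clec7a* (Dectin-1) and the peptidoglycan-binding granule protein *Pglyrp1*. Since the barcodes were chosen on expression, this ranking is a description. Neutrophils of both libraries shared this profile: *Il1b* was found in 97.5% and 98.1% of them, at 5768 CPM (FGF8) and 6556 CPM (BSA). *Il1r2* was at 889 and 906 CPM and *Asprv1*, a protease gene, at 1715 and 1846 CPM. Of the 14 genes, *Ccrl2* alone was past 2-fold apart between the libraries.

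**Figure D2:**
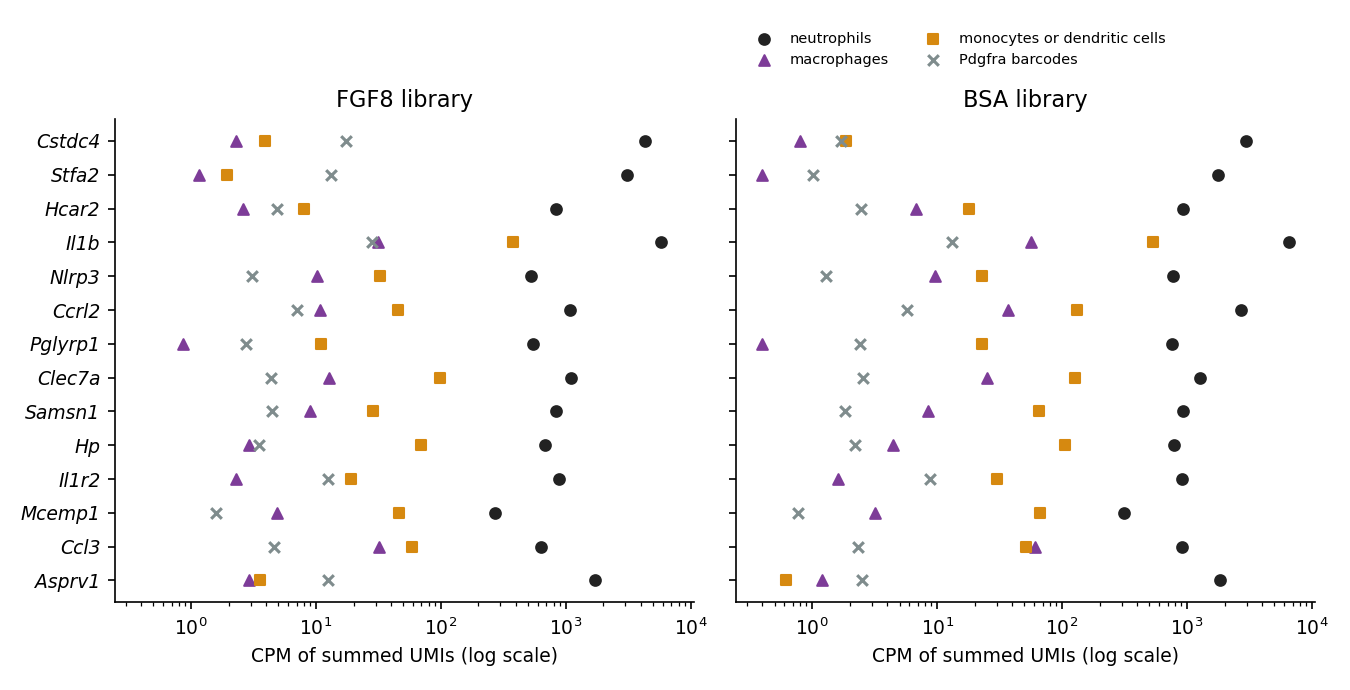
Levels of 14 leading neutrophil genes (CPM of summed UMIs, log scale) in the FGF8 library (left) and the BSA library (right), for neutrophils (circles), macrophages (triangles), monocytes or dendritic cells (squares) and barcodes with *Pdgfra* (crosses). Values of 0 are not drawn. Neutrophils lie to the right of the other types for every gene, for example *Il1b* at 5768 and 6556 CPM.

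Stefin A genes were prominent in the neutrophil profile, and 2 of them, *Stfa2l1* and *Csta3*, were used to choose the cells. Stefins are small inhibitors of cysteine proteases such as cathepsins, and the mouse has a row of near-copies of them on chromosome 16. The coding starts of 3 of them are shown to let the copies be compared, each as the first 90 coding bases in the GENCODE vM39 annotation of GRCm39. Capitals mark bases that differ from *Stfa2*.
Stfa2: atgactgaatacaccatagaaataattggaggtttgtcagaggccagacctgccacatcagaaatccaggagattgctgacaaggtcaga
Stfa2l1: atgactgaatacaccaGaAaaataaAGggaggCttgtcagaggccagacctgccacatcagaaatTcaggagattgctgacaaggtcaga
Stfa3: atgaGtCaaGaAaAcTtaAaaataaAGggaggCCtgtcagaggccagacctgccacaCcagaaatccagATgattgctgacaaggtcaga
*Stfa2l1* differed from *Stfa2* at 6 of these bases and *Stfa3* at 14. *Stfa2* lies on the minus strand at chr16:36224305-36241288, *Stfa2l1* on the plus strand at chr16:35977176-35982332 and *Stfa3* on the minus strand at chr16:36270893-36275884.

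Most stefin genes were slightly higher in FGF8 neutrophils, without reaching 2-fold, and they were also higher with FGF8 outside neutrophils. *Stfa2* had 6175 UMIs in 79.0% of FGF8 neutrophils and 1283 UMIs in 66.2% of BSA neutrophils, or 3064 and 1764 CPM, a log2 ratio of 0.80 (0.71 to 0.88). *Stfa3* had 930 and 192 UMIs, a log2 ratio of 0.81 (0.58 to 1.04). *Cstdc5* had 10108 and 2752 UMIs, a log2 ratio of 0.41 (0.35 to 0.47). Of 8 stefin genes tested 7 were above 0, with a median of 0.49, and the median was 0.52 in shallow neutrophils and 0.79 in the other kept barcodes. The exception was *Cstb* (cystatin B), a relative encoded elsewhere, at -0.90 in all and -0.32 in shallow neutrophils. The ratio of *Stfa2* was 0.45 in female-called, 0.73 in male-called and 1.05 in uncalled neutrophils. How reads were shared among the copies limits the value for each single gene. The library reads the 3′ ends of transcripts, not the coding starts printed above, and of the 50-base windows in the last 300 transcript bases, 23.1% in *Stfa2* and 62.2% in *Cstdc5* also occur in another stefin transcript, while none do in *Stfa3*.

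Neutrophils made up a larger share of the FGF8 library. They were 7.65% of kept barcodes with FGF8 (7.03 to 8.32%) and 4.92% with BSA (4.20 to 5.72%). Among barcodes with *Ptprc*, the leukocytes, neutrophils were 30.1% and 22.4%. The intervals do not overlap, but they hold no variation between animals or dissections, and a share depends on how many other cells were captured.

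The FGF8 and BSA neutrophils were compared by summing UMIs over the barcodes of each library and taking the log2 ratio of CPM, FGF8 over BSA. Of 6526 genes with at least 50 UMIs, 768 were past 2-fold higher in FGF8 neutrophils, 11.8% of those tested, and 242 were past 2-fold lower, 3.71%. In shallow neutrophils, of 4380 genes tested, 7.35% were past 2-fold higher and 3.29% lower. The median over all genes tested was 0.08, and 0.01 in shallow neutrophils. In female-called neutrophils 159 of 1802 genes tested were past 2-fold higher (8.82%) and 281 lower (15.6%). In male-called ones, only 19 of them in the BSA library, 537 of 3718 were higher (14.4%) and 225 lower (6.05%). The balance between directions thus differed with the sex call.

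Interferon-stimulated genes were lower in FGF8 neutrophils. Of the 10 genes with the lowest ratio, found in at least 10 neutrophils of the library where they were higher, 6 belong to the interferon list: *Ifit3b*, *Usp18*, *Ifit1*, *Ifit2*, *Rsad2* and *Ifit3*. The others were *Aoah*, which inactivates endotoxin, *Gm13822*, *Ly6i* and *Cxcl10*, an interferon-induced chemokine. The IFIT proteins bind foreign RNA, *Rsad2* encodes viperin, which blocks viral replication, and *Usp18* removes ISG15 from proteins and damps interferon signaling. *Ifit3b* had 14 UMIs in FGF8 and 73 in BSA neutrophils, a log2 ratio of -3.85 (-4.79 to -3.02) and of -4.46 in shallow neutrophils. *Rsad2* had 92 UMIs in 6.42% and 242 UMIs in 22.5% of neutrophils, a log2 ratio of -2.87 (-3.23 to -2.51), or 7.29 times lower. *Ifit1* had 49 and 150 UMIs and *Ifit2* 57 and 157, at -3.08 and -2.93. *Isg15*, a ubiquitin-like modifier, had 551 and 632 UMIs, or 273 and 869 CPM, a log2 ratio of -1.67 (-1.84 to -1.50).

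Over the whole interferon list, 22 of 29 genes tested were past 2-fold lower, against 3.71% of all genes tested. None was past 2-fold higher, against 11.8%, and the median was -1.75. In shallow neutrophils 17 of 25 were past 2-fold lower, against 3.29% of all genes tested there, with a median of -1.58. Transcription factors of the response were included, with *Irf7* at -2.15, *Stat2* at -1.67 and *Irf1* at -1.16. The interferon-induced transmembrane genes were divided. *Ifitm1* had 3248 UMIs in FGF8 and 677 in BSA neutrophils, a log2 ratio of 0.79, *Ifitm2* was at 0.56, while *Ifitm3* was at -0.76 and *Ifitm6* at -0.44. *Ifitm1*, *Ifitm2* and *Ifitm3* had more UMIs in FGF8 neutrophils than any other gene of the list, and the size of a summed difference depended on these genes. Over all 32 genes of the list the sum was 7112 CPM with FGF8 and 10216 CPM with BSA in all neutrophils, a log2 ratio of -0.52 (-0.56 to -0.48). In shallow neutrophils it was 9125 and 11410 CPM, a log2 ratio of -0.32 (-0.37 to -0.28). The sums over single barcodes given next leave out the 4 *Ifitm* genes, a choice made after their ratios had been seen.

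**Figure D3:**
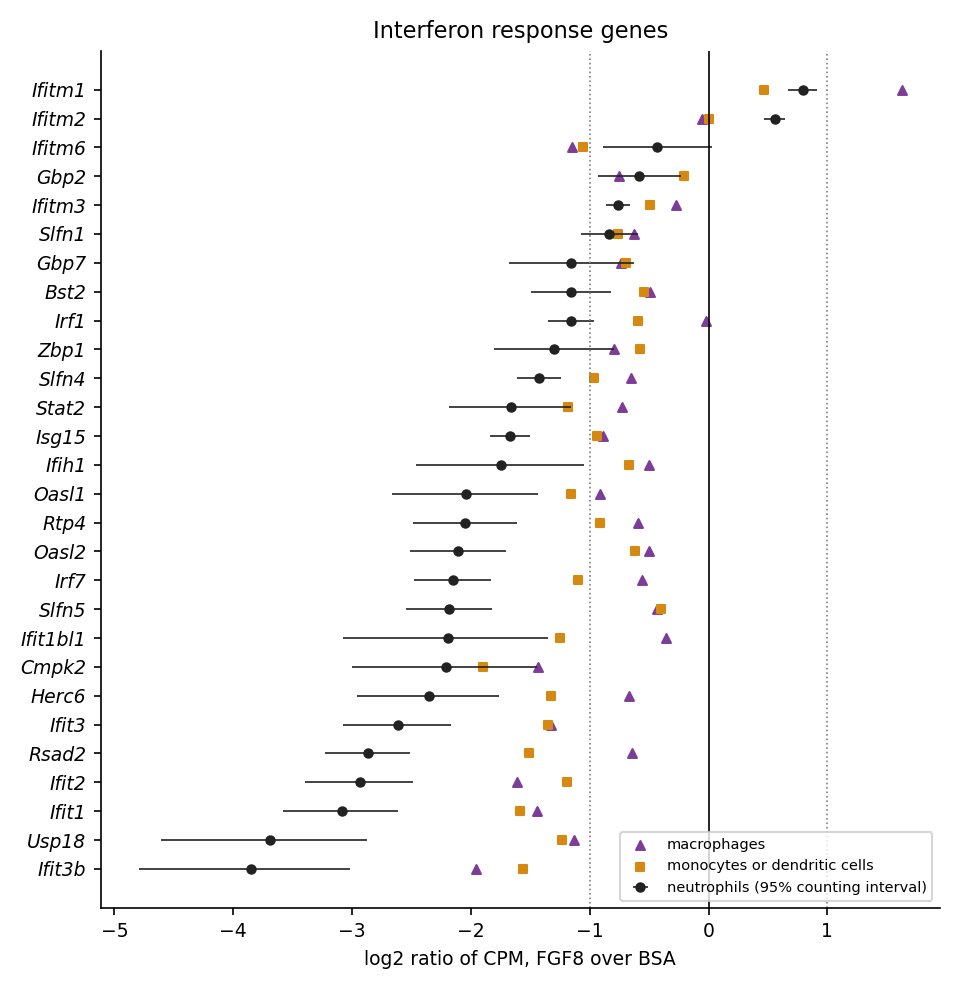
Log2 ratios of CPM, FGF8 over BSA (x axis), of 28 of the 29 interferon response genes with at least 50 neutrophil UMIs (y axis), in neutrophils (circles with 95% counting intervals), macrophages (triangles) and monocytes or dendritic cells (squares). Solid and dotted lines mark 0 and 2-fold. In neutrophils 22 genes lie left of the lower dotted line, from *Gbp7* at -1.15 (-0.999 in shallow neutrophils) to *Ifit3b* at -3.85, while *Ifitm1* and *Ifitm2* lie right of 0.

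Most UMIs of the other 28 interferon genes came from a minority of neutrophils, and this minority was a smaller share of the FGF8 neutrophils. These 28 genes summed to 2694 UMIs in the 479 shallow FGF8 neutrophils and 2998 UMIs in the 145 shallow BSA neutrophils, or 2147 and 6365 CPM, a log2 ratio of -1.57 (-1.64 to -1.49). The typical barcode differed little, with a median of 3 such UMIs with FGF8 and 5 with BSA, and with highest values of 175 and 236. At least 5 of the 28 genes were detected in 54 FGF8 neutrophils, 11.3% (8.58 to 14.5%), and in 45 BSA neutrophils, 31.0% (23.6 to 39.2%). These barcodes held 57.1% of the interferon UMIs with FGF8 and 88.3% with BSA. With every barcode thinned to 1000 UMIs, which left out 15 FGF8 and 4 BSA neutrophils, the shares were 6.03% (4.05 to 8.60%) and 19.9% (13.6 to 27.4%). These intervals count barcodes within 1 library per treatment and hold no variation between animals. In both libraries 50% of the interferon UMIs came from few barcodes, 35 of 479 and 12 of 145.

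**Figure D4:**
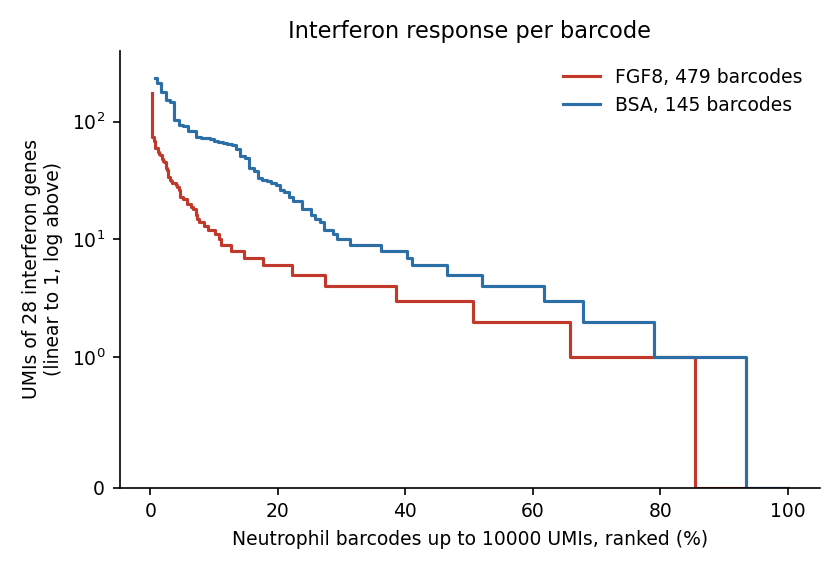
UMIs of 28 interferon genes per shallow neutrophil (y axis, linear to 1 and logarithmic above), with barcodes ranked from highest to lowest and placed by their rank in percent (x axis), for 479 FGF8 barcodes (red) and 145 BSA barcodes (blue). The BSA line lies above the FGF8 line over the upper ranks and both reach few UMIs further right, with medians of 3 (FGF8) and 5 (BSA).

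Shallow neutrophils with 5 or more interferon genes were also described by genes that did not choose them. *Il1b* was at 7593 CPM in them against 8937 CPM in neutrophils with fewer interferon genes with FGF8, and at 10164 against 8947 CPM with BSA. The *Ifitm* genes, which were not used to split them, were divided. *Ifitm3* was higher in them in both libraries, at 2914 against 652 CPM with FGF8 and 3952 against 346 CPM with BSA. *Ifitm6* was also higher, at 182 against 74.8 CPM and 145 against 78.4 CPM. *Ifitm2* was not, at 3267 against 3532 CPM and 1964 against 2069 CPM. *Ifitm1* was at 2602 against 2345 CPM with FGF8 and 1164 against 1376 CPM with BSA. The split was made on the interferon genes themselves, so this is a description.

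The size of the interferon difference varied with the sex call. In shallow female-called neutrophils, 27 with FGF8 and 25 with BSA, the 28 genes had 4018 and 5199 CPM, a log2 ratio of -0.37 (-0.57 to -0.17). In shallow male-called neutrophils, 177 and 17, they had 1864 and 5605 CPM, a log2 ratio of -1.59 (-1.77 to -1.40). In uncalled neutrophils, 275 and 103, the ratio was -1.69 (-1.79 to -1.60). At least 5 interferon genes were found in 4 of 27 FGF8 and 9 of 25 BSA neutrophils among the female-called ones, and in 21 of 177 and 9 of 17 among the male-called ones. The sums were thus lower with FGF8 in each of the 3 sets, but single genes were not. *Isg15* had 57 and 47 UMIs in shallow female-called neutrophils, a log2 ratio of 0.48 (-0.11 to 1.07), and *Ifit3* was at 0.16 over all female-called neutrophils. The difference between the sexes was not tested.

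The interferon sums were lower with FGF8 in other leukocytes too, and whether by less than in neutrophils depended on the *Ifitm* genes. Macrophages were taken here as barcodes with 2 or more C1q genes and *Csf1r*, 239 with FGF8 and 155 with BSA, and monocytes or dendritic cells as 315 and 148 barcodes with at least 2 of 6 genes of those types and no C1q gene. Neither set held barcodes with *Pdgfra* or with 2 of the neutrophil genes. The 28 genes summed to 1857 and 3050 CPM in macrophages, a log2 ratio of -0.72 (-0.76 to -0.67). In monocytes or dendritic cells they summed to 3298 and 6117 CPM, a log2 ratio of -0.89 (-0.93 to -0.85), and in barcodes with *Pdgfra* the ratio was -0.41 (-0.44 to -0.39). The value over all neutrophils, -1.66 (-1.73 to -1.60), lay below these intervals, which cover counting error only. With the *Ifitm* genes included, the ratio was -0.52 in all neutrophils, -0.45 (-0.48 to -0.41) in macrophages and -0.64 (-0.67 to -0.61) in monocytes or dendritic cells. It was -0.03 in barcodes with *Pdgfra*, so neutrophils no longer had the lowest value. In shallow neutrophils the ratio was -1.57 (-1.64 to -1.49) over the 28 genes. With the *Ifitm* genes it was -0.32 (-0.37 to -0.28) there, a smaller difference than in macrophages. Past 2-fold lower were 22 of 25 genes tested in neutrophils, against 3.71% of all genes tested there. The counts were 7 of 28 in macrophages, 14 of 28 in monocytes or dendritic cells and 5 of 28 in barcodes with *Pdgfra*. The share over all genes was not computed in those 3 types, so how far their counts exceed it is not known. A gene may be tested in one cell type and not in another, so the sets differ by a few genes. At 1000 UMIs per barcode, 5 or more of the genes were found in 10.9% of FGF8 and 17.6% of BSA macrophages, and in 18.7% and 38.2% of monocytes or dendritic cells.

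Receptors for chemoattractants guide neutrophils to a wound. Of 14 tested, 0 were past 2-fold higher with FGF8 and 5 lower, against 11.8% and 3.71% of all genes tested. In shallow neutrophils 0 of 12 were past 2-fold higher and 3 lower, against 7.35% and 3.29%. The median was -0.64, and -0.35 in shallow neutrophils. *Ccrl2*, an atypical receptor that binds chemerin and presents it to other cells, had 2180 UMIs in 75.5% of FGF8 neutrophils and 1979 UMIs in 86.9% of BSA neutrophils, or 1082 and 2722 CPM. Its log2 ratio was -1.33 (-1.42 to -1.24), with -1.30 in shallow neutrophils. It was lower with FGF8 in female-called (-2.51), male-called (-1.91) and uncalled (-0.97) neutrophils, and also in macrophages (-1.80) and in monocytes or dendritic cells (-1.53). After thinning to 1000 UMIs it was found in 58.6% (54.0 to 63.1%) and 75.2% (67.2 to 82.1%) of shallow neutrophils, and in 0% and 2.61% of macrophages. *Gpr84*, a receptor for medium-chain fatty acids, was at -1.92, the formyl peptide receptor *Fpr3* at -1.29 and *C5ar2* at -1.19. *C3ar1*, the lowest of the list at -1.97, was at -0.63 in shallow neutrophils. *Cxcr4*, which retains neutrophils in the marrow and marks aged ones, was at -0.87. The main receptor for CXC chemokines, *Cxcr2*, was at 0.24 and was used to choose the cells, and the leukotriene B4 receptor *Ltb4r1* was the highest of the list at 0.65.

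Chemokine transcripts went in both directions. Of 13 tested, 6 were past 2-fold higher and 2 lower, against 11.8% and 3.71% of all genes tested, with a median of 0.63. In shallow neutrophils 5 of 11 were past 2-fold higher and 1 lower, against 7.35% and 3.29%, with a median of 0.58. *Cxcl2*, a neutrophil attractant made by neutrophils themselves, had 5558 UMIs in 61.5% of FGF8 neutrophils and 1293 UMIs in 43.8% of BSA neutrophils, a log2 ratio of 0.63 (0.55 to 0.72). That direction did not hold in female-called neutrophils, where it was -1.16 (-1.45 to -0.87), against 0.34 in male-called and 0.98 in uncalled ones. *Ccl3*, which attracts monocytes, was lower at -0.53 (-0.67 to -0.39), with 1267 UMIs in 47.3% and 660 in 66.2% of neutrophils, and *Ccl6* was at -0.71. *Cxcl10* had 48 and 112 UMIs and was at -2.69, and at -3.83 in shallow neutrophils, where 74 of its 107 BSA UMIs came from 1 barcode. The extremes of the list rested on single barcodes: 578 of 579 *Ccl5* UMIs of the BSA library and 130 of 131 *Ccl24* UMIs of the FGF8 library came from 1 barcode each, both with over 10000 UMIs. *Cxcl5* had 84 UMIs in FGF8 neutrophils and 0 in BSA neutrophils, at least 3.34 on the log2 scale against a floor of 3 counts, with a counting interval that starts at 3.01. After thinning it was found in 6.68% of shallow FGF8 neutrophils, against 15.8% of barcodes with *Pdgfra* and 0.84% of macrophages in that library. *Ccl7*, at 3.67, had 87.3 CPM in FGF8 neutrophils against 240 CPM in the other kept FGF8 barcodes. Its ratio in the other kept barcodes was 1.52, and the median of the same list there was 0.47. The part of free RNA in *Cxcl5* and *Ccl7* was not tested, and they are not read as expression by neutrophils.

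Among inflammatory cytokines, *Tnf* was lower with FGF8 and *Il1b* was close between the libraries. *Tnf* had 480 UMIs in 39.3% of FGF8 neutrophils and 437 UMIs in 60.6% of BSA neutrophils, or 238 and 601 CPM. Its log2 ratio was -1.34 (-1.53 to -1.15), with -1.39 in shallow neutrophils and -1.74, -1.63 and -1.10 in female-called, male-called and uncalled neutrophils. After thinning it was found in 22.6% (18.9 to 26.7%) and 38.3% (30.2 to 46.9%) of shallow neutrophils, and in 4.18% and 4.58% of macrophages, where its ratio was 0.02. *Il1b* was at -0.18, the IL-1 receptor antagonist *Il1rn* at -0.50 and the IL-1 accessory receptor *Il1rap* at 0.28. Of 11 genes of the IL-1 and TNF families 1 was past 2-fold higher (*Il1r1*) and 2 lower (*Tnf* and *Il18*). Over all genes tested these shares were 11.8% and 3.71%. In shallow neutrophils *Il18* was at -0.47.

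Genes induced by NF-kB and the immediate early genes were mostly below 0, few of them past 2-fold. Of 29 tested, 2 were past 2-fold lower, against 3.71% of all genes tested, 0 higher and 6 above 0, with a median of -0.39 (-0.64 to -0.17). In shallow neutrophils the median was -0.33 and 4 of 29 were past 2-fold lower, against 3.29% of all genes tested there. In the other kept barcodes the median of the same genes was 0.15. *Tnfaip3* (A20), which shuts off NF-kB signaling, had 461 and 393 UMIs, a log2 ratio of -1.24 (-1.44 to -1.04). *Cd83* was at -1.56 with 47 and 50 UMIs. The inhibitor *Nfkbia* had 4102 and 2359 UMIs and was at -0.67 (-0.75 to -0.60), while it was at 0.98 in the other kept barcodes. *Nfkb1* was at -0.85 and at -1.44 in shallow neutrophils, *Atf3* at -0.80, *Zfp36*, which destabilizes cytokine mRNA, at -0.69 and *Junb* at -0.48. *Ier3* (0.52) and *Egr1* (0.54) were above 0. Immediate early genes also respond to enzymatic dissociation, and its part in these values was not tested.

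Survival and death genes had a median of -0.34 over 22 tested, with an interval of the median, -0.67 to 0.06, that includes 0. Past 2-fold lower were 3 of them, against 3.71% of all genes tested, and 0 were higher. In shallow neutrophils the median was -0.40. Of 19 tested there 4 were past 2-fold lower and 1 higher, against 3.29% and 7.35% of all genes tested there. *Bcl2a1d*, of the A1 family that keeps neutrophils alive, was at -1.59 (-1.95 to -1.23) with 129 and 140 UMIs, and its near-copies *Bcl2a1b* and *Bcl2a1a*, which could share reads with it, were at -0.83 and -0.55. *Birc3* (cIAP2) and *Gadd45b* were both at -1.04, the latter with 2365 and 1751 UMIs. *Mcl1*, on which neutrophil survival depends, had 4466 and 2092 UMIs and was at -0.38 (-0.45 to -0.30). *Bcl2l1*, which encodes Bcl-xL, was the highest of those tested at 0.76, with 94 and 20 UMIs, and at 1.13 in shallow neutrophils.

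Sensors and effectors of microbial defense were mostly close between libraries. Of 24 pattern recognition and Fc receptor genes 3 were past 2-fold lower, against 3.71% of all genes tested, and 0 were higher. The median was -0.23, and -0.12 in shallow neutrophils, where 1 of 21 was past 2-fold lower, against 3.29%. *Nod2*, a sensor of bacterial muramyl dipeptide, had 66 UMIs in 10.7% and 85 UMIs in 35.6% of neutrophils, a log2 ratio of -1.84 (-2.32 to -1.35). *Clec4e* (Mincle) was at -1.07 and at -0.84 in shallow neutrophils, *Tlr2* at -0.81, *Tlr4* at 0.33 and the endotoxin co-receptor *Cd14*, with 7193 and 2234 UMIs, at 0.22. Of the NADPH oxidase, which makes superoxide, 1 of 7 genes tested was past 2-fold lower, against 3.71% of all genes tested. This was the catalytic subunit *Cybb*, with 96 UMIs in 5.84% and 119 UMIs in 18.1% of neutrophils, at -1.78 (-2.18 to -1.38). Its partner *Cyba* was at -0.26, *Ncf1* at -0.70 and *Ncf4* at -0.02, and the median of the 7 genes was -0.26 and 0.00 in shallow neutrophils.

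Granule and calprotectin genes went in both directions. *S100a8* had 18807 and 8476 UMIs, a log2 ratio of -0.32, and *S100a9* 31449 and 9734 UMIs, a log2 ratio of 0.22, so the calprotectin subunits differed in sign. Both were used to choose the cells. Of 4 secondary granule genes 1, *Olfm4*, was past 2-fold higher, against 11.8% of all genes tested. It was at 1.12 (0.59 to 1.70) with 199 and 33 UMIs. *Lcn2* was at 0.87, *Hp* at -0.21 and *Pglyrp1* at -0.48, and the median of the 4 genes was 0.33. In shallow neutrophils the median was 0.49, and both *Olfm4* (1.10) and *Lcn2* (1.06) were past 2-fold higher, against 7.35% of all genes tested there. The 3 primary granule genes tested had a median of -0.49 (0.63 in shallow neutrophils). *Ctsc*, which activates granule proteases, was at -0.49 in all neutrophils and at 1.64 in shallow ones. *Lyz2* was at -1.24, with 1848 and 1578 UMIs, but at -0.24 in shallow neutrophils and at 1.63 in male-called ones. Of 14 proteases and inhibitors 2 were past 2-fold higher, *Timp1* and *Arg1*, against 11.8% of all genes tested. *Mmp9* was at 0.04 and *Slpi* at 0.09, and the median was 0.06 (0.10 in shallow neutrophils). The 136 *Arg1* UMIs of FGF8 neutrophils came from 5 barcodes, 94 of them from 1. The 20 lysosome genes had a median of -0.44 that was 0.02 in shallow neutrophils, and *Ctss*, at -1.19, was at 0.14 there.

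The remaining lists had medians between -0.33 and 0.22. The 29 glycolysis and hypoxia genes had a median of 0.05 (0.22 in shallow neutrophils), with *Ankrd37*, a target of hypoxia-inducible factor, at 1.06 and *Gapdh* at 0.12. The 11 eicosanoid and resolution genes had a median of -0.25 with 0 past 2-fold, among them *Alox5ap* at -0.40 and *Ptgs2* (COX-2) at -0.50. The 12 adhesion genes had a median of -0.24, with *Ceacam1* at -1.55, *Itgam* (CD11b) at 0.17 and *Pecam1* at 1.78. Of the *Pecam1* UMIs with FGF8, 147 came from deep barcodes and 34 from shallow neutrophils. Cytokine receptors had a median of -0.33 over 17 genes, with *Csf3r* at -0.27 and *Csf1r* at -1.14 (-0.70 in shallow neutrophils). Past 2-fold higher was 1 of them (*Il6st*) and lower 1 (*Csf1r*), against 11.8% and 3.71% of all genes tested. Growth factors had a median of -0.01 (-0.67 to 2.87) over 11 genes. Past 2-fold higher were 3 of them, *Pdgfa* the highest, and lower 1, against 11.8% and 3.71% of all genes tested. In shallow neutrophils 1 of 7 was past 2-fold higher and 0 lower, against 7.35% and 3.29%. The lowest, *Vegfa*, with 169 and 133 UMIs, was at -1.13 and at -0.85 in shallow neutrophils. The S100 proteins, calprotectin included, had a median of 0.22 over 11 genes, with *S100a6* the lowest at -0.36, *S100a3* at 1.97 and *S100a14* the highest. Of these genes 3 were past 2-fold higher, against 11.8% of all genes tested. In shallow neutrophils the median was 0.32, and 3 of 8 tested were past 2-fold higher, against 7.35% of all genes tested there: *S100a3* (2.25), *S100a4* (1.48) and *S100a10* (1.43).

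Genes of FGF reception were few in neutrophils. Of 8 FGF receptor and feedback genes with at least 50 UMIs, 3 were past 2-fold higher and 0 lower. Over all genes tested the shares were 11.8% and 3.71%. The median of the 8 genes was 0.59. *Fgfr1* had 120 and 10 UMIs (2.11), *Spry2*, a feedback inhibitor, 47 and 3 UMIs (2.50, 0.86 to 4.83) and *Spred2* 67 and 9 UMIs (1.43). In shallow neutrophils only 3 of these genes reached 50 UMIs, none was past 2-fold, and the median was 0.10. The feedback phosphatases *Dusp6* and *Dusp5* were at 0.62 and -0.43. Cell cycle genes, which mature neutrophils do not use, were past 2-fold higher for 14 of 15 tested, against 11.8% of all genes tested. Their median was 1.87, and the median of the same genes in the other kept barcodes was 1.10. In shallow neutrophils 4 could be tested and 2 were past 2-fold higher, against 7.35% of all genes tested there.

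**Figure D5:**
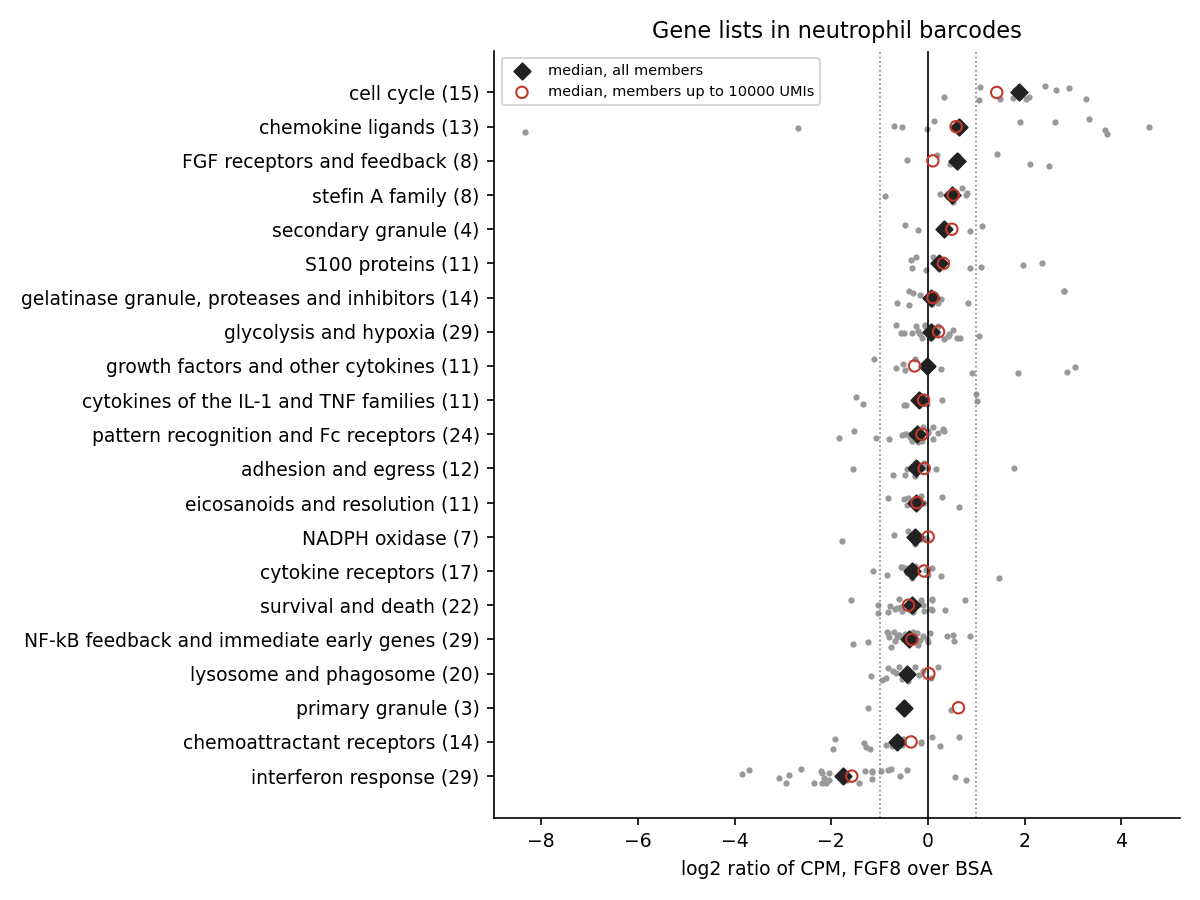
Log2 ratios of CPM, FGF8 over BSA (x axis), for the genes of 21 lists in neutrophils (y axis, with the number of genes tested in parentheses). Grey points are genes over all neutrophils, black diamonds their median and red circles the median in shallow neutrophils, with solid and dotted lines at 0 and 2-fold. The interferon list has the lowest median (-1.75 and -1.58) and the cell cycle list the highest (1.87 and 1.42, the latter from 4 genes).

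The genes with the highest ratio included several of cartilage and fibroblasts, and few of them could be measured in shallow neutrophils. The 10 highest were *Mmp3*, *Col9a2*, *Adgrl2*, *Fxyd3*, *Spp1*, *Tnfrsf11b*, *Lhx2*, *Ly6c1*, *Col9a3* and *Rgs16*, with log2 ratios from 4.91 (*Rgs16*) to 6.37 (*Mmp3*). *Spp1* and *Col9a3* apart, they had 1 to 3 UMIs in BSA neutrophils, and the interval for *Mmp3* ran from 3.88 to 11.7. *Col9a2* and *Col9a3* encode cartilage collagen and *Mmp3* stromelysin, a matrix metalloprotease of fibroblasts. Only *Mmp3* and *Spp1* had 50 UMIs in shallow neutrophils, and both were past 2-fold higher there. *Mmp3* had 95 UMIs in shallow FGF8 neutrophils and 0 in BSA neutrophils, at least 3.57 on the log2 scale against a floor of 3 counts, with a counting interval that starts at 3.24. *Spp1* (osteopontin) had 9605 UMIs with FGF8, 4981 of them in 1 barcode, and 101 with BSA. In shallow neutrophils it had 794 and 67 UMIs, a log2 ratio of 2.15 (1.79 to 2.54).

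*Spp1*, *Prg4* and *Timp1* were also higher with FGF8 in the other cell types. The log2 ratios of *Spp1* were 3.76 in macrophages, 4.83 in monocytes or dendritic cells and 2.14 in barcodes with *Pdgfra*. After thinning, *Spp1* was found in 32.8% of FGF8 and 7.09% of BSA shallow neutrophils, in 17.2% and 9.15% of macrophages, in 32.4% and 9.72% of monocytes or dendritic cells and in 22.6% and 3.64% of barcodes with *Pdgfra*. Median depths before thinning were 2385 and 3205 UMIs in shallow neutrophils and 13251 and 15771 UMIs in macrophages. *Prg4* (lubricin), a product of joint-lining cells, was found after thinning in 16.2% and 0% of shallow neutrophils, in 5.44% and 0% of macrophages and in 18.8% and 4.27% of barcodes with *Pdgfra*. For the 141 thinned BSA neutrophils a count of 0 allows up to 2.58%. *Timp1* was found in 19.2% and 0% of shallow neutrophils, 10.5% and 1.96% of macrophages and 43.2% and 19.4% of barcodes with *Pdgfra*. Before thinning *Prg4* was found in 30.5% of shallow FGF8 neutrophils and 43.5% of macrophages, and *Timp1* in 43.2% and 57.3%, so neutrophils were below macrophages at full depth and above them at equal depth. The part of free RNA in these shares was not tested, and they are not read as expression by neutrophils. The 10 highest ratios in shallow neutrophils, chosen after the deep barcodes were seen, belonged to *Tpsb2* (5.90, 3.40 to 11.2), *Cma1* (5.19), *Ccl7* and *Cxcl14* (both 4.89, 2.37 to 10.2), *Timp1* (4.78), *Prg4* (4.76, 3.20 to 7.05), *Selenoh* (4.59, 2.06 to 9.91), *Prrx1* (4.49, 1.96 to 9.82), *Lman1* (4.34, 1.80 to 9.67) and *Fbln5* (4.26, 1.72 to 9.59). The BSA library held 1 to 6 UMIs of each. Of the 159 *Tpsb2* UMIs in shallow FGF8 neutrophils 138 came from 1 barcode, and over all neutrophils the ratio of *Tpsb2* was 0.01. Mast cell markers as a whole had 1167 of their 1245 UMIs in 1 shallow FGF8 barcode. The mast cell protease gene *Cma1* had 548 of its 592 FGF8 UMIs and 581 of its 589 BSA UMIs in 1 barcode each.

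*Retnlg* (resistin-like gamma), a secreted protein made by neutrophils, was found in more FGF8 neutrophils. It falls outside the rule by which genes were named and was chosen after its values were seen. It had 648 UMIs in 68 of 514 FGF8 neutrophils (13.2%) and 30 UMIs in 10 of 160 BSA neutrophils (6.25%). After thinning it was found in 9.27% (6.79 to 12.3%) and 3.55% (1.16 to 8.08%) of shallow neutrophils, intervals that overlap, and in no macrophage of either library. The sum was 147 and 83.5 CPM in female-called, 99.8 and 42.7 CPM in male-called and 681 and 17.3 CPM in uncalled neutrophils. In the FGF8 library 36 shallow neutrophils had 3 or more *Retnlg* UMIs. They had 57407 CPM of *S100a9* and 10986 CPM of *Stfa2*, against 19490 and 3805 CPM in the 416 neutrophils without *Retnlg*, and *Ccl3* was found in 27.8% of them against 50%. The BSA library had 3 such neutrophils, too few for the same description.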

How the data were processed

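The authors captured cells with 10x 3′ chemistry and deposited UMI counts per gene and barcode, not normalized, for 7249 FGF8 and 3703 BSA barcodes. The submitters' processing notes name Cell Ranger 9.0.0 and the builds GRCm39 and mm10. Per the study's methods reads were counted against a GRCm39 transcriptome, whose annotation may differ from the GENCODE vM39 used here for the stefin windows and coordinates. Barcodes that had over 200 but under 7500 genes and less than 15% mitochondrial UMIs were kept. No doublet caller was run, and barcodes over 10000 UMIs were left out as an alternative. Neutrophil UMIs were summed in each library and expressed as CPM, per 1000000 UMIs. Log2 ratios of CPM were taken for genes with at least 50 UMIs in both libraries together, and 3 counts stood in for a sum of 0. Intervals are exact (Poisson for sums, conditional binomial for ratios, Clopper-Pearson for shares). Called means past 2-fold.

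The naming rule took the 10 highest and 10 lowest ratios found in at least 10 neutrophils of the higher library. The genes of the definition, *Xist* and Y-linked genes were left out. The rule also took the 15 leading genes, and from each of 21 lists those with most UMIs and the largest and smallest ratios. Not all of these list genes appear in the text. Other list members are examples picked after their values were seen. The members and lists were chosen with earlier results of these data known. The alternatives were other marker thresholds and filters, thinning to 1000 UMIs, equal weight of cells, other minimums of UMIs, centring and each sex alone. Python 3.11.15, numpy 2.4.6, scipy 1.17.1, pandas 2.3.3 and matplotlib 3.10.9 were used, and the ratio computation was tested on simulated counts. The remaining 1 of the 15 leading genes and list genes that are not named are not reported here.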

Additional observations from a re-analysis of the deposited data

How the results depend on the processing

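No paired analysis was possible because each treatment has 1 library, and for the same reason no replicate could be left out. The neutrophil share of the FGF8 library, 7.65%, was 8.50% with 1 of the 6 genes required, 7.03% with 3, 8.80% without the *Pdgfra* condition, 10.1% with stricter limits on genes and mitochondrial UMIs, and 30.1% of barcodes with *Ptprc*. The BSA share, 4.92%, was 6.09% and 22.4% under the last 2. The FGF8 share was the higher under each. Genes past 2-fold higher numbered 96 after thinning to 1000 UMIs, 322 without neutrophils over 10000 UMIs, 328 with equal weight of cells added, 1611 with at least 20 UMIs, 358 with at least 100 and 159 in female-called neutrophils. Those past 2-fold lower numbered 82, 144, 161, 455 and 137 under the first 5 of these. The genes tested differed, at 2202, 4380, 4380, 9737, 4219 and 1802. The shares higher were thus 4.36%, 7.35%, 7.49%, 16.5%, 8.49% and 8.82%, against 11.8% in the main comparison. The shares lower were 3.72%, 3.29%, 3.68%, 4.67% and 3.25% under the first 5, against 3.71%. The ratio of *Ifit3* turned to 0.16 in female-called neutrophils. In male-called ones *Lyz2* turned to 1.63, *Csf1r* to 0.12, *Ctss* to 2.95, *Prrx1* to -1.20 and *Lman1* to -0.22. Without neutrophils over 10000 UMIs *Ctss* turned to 0.14 and *Cma1* to 5.19, and after thinning *Vegfa* turned to 0.10. The causes were not tested. At this depth per barcode, genes of low level could not be followed in single neutrophils, and with 1 library per treatment no ratio carries an error between animals. The summed interferon ratio of shallow neutrophils, -1.57 over 28 genes, was -0.32 with the 4 *Ifitm* genes included. That sum, applying the naming rule to shallow neutrophils, the interferon shares per barcode and equal weight of cells together with leaving out deep barcodes were added after seeing the data.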
